A study of Rattus norvegicus with 6 samples.

Results

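The transcripts described here are long RNAs of the rat that carry the name of a microRNA gene: 46 of the 2455 transcripts with values in a deposited table of long non-coding RNAs. They are the entries whose gene name begins with Mir and a digit or with rno-mir. The names Mir675, Mir124-2, Mir137, Mir129-2, Mir7a-2, Mir384 and Mir325 (10 transcripts) were not included, nor were 11 transcripts of 2 regions on chromosomes 1 and 6. The 46 transcripts fell at 11 loci, each with its own microRNA name: Mir143, Mir221, Mir223, Mir29b-1, Mir29b-2, Mir3588, Mir365, Mir421, Mir802, rno-mir-1839 and rno-mir-6326.

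RNA was sequenced from 6 tissues of male rats of the inbred BN (Brown Norway) strain at 6 weeks of age: liver, cortex, the outer medulla of the kidney, the heart's left ventricle, adrenal gland and hypothalamus. No treatment or genetic change is given for any tissue, there was 1 sample per tissue, and the cortex is not said to be that of kidney or brain. The table has 2 columns of FPKM (fragment counts scaled by transcript length and library depth) for each tissue, called columns 1 and 2 here, and 2 values printed for a tissue are in that order. Whether the 2 columns are separate animals is not stated, so p-values reflect the spread between columns alone, and that spread may be technical. Hypothalamus was matched to its 2 columns by elimination.

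A microRNA gene is usually transcribed as a much longer RNA, the primary transcript or host transcript. The Drosha and Dgcr8 complex cuts a hairpin out of it, Dicer trims the hairpin to a mature microRNA, and an Argonaute protein loads that strand and pairs it with messenger RNAs, mainly through the seed at bases 2 to 8. The FPKM values here count the long transcripts, not the mature microRNAs, which were not measured. None of 12 genes of the processing pathway that were looked up (Drosha, Dgcr8, Dicer1 and the Argonautes among them) is named in this table.

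Of the 31 seeds of the mature microRNAs at these loci and of their neighbours, 3 are shared by more than 1 mature name. The following sequences are those of loci that differed among tissues, with neighbours within 10 kb, and were chosen after the values were seen. They come from RefSeq (GRCr8), are written 5′ to 3′, and have the seed in capitals. All 11 names matched an entry there, 10 with a mature sequence, and Mir802 had none. The miR-29 family shares the seed AGCACCA:
rno-miR-29b-3p: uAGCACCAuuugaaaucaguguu
rno-miR-29a-3p: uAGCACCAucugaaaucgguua
rno-miR-29c-3p: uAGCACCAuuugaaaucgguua
Counting from 1 at the 5′ end, miR-29a-3p differs from miR-29b-3p by U10C, A18G, G21U and U22A, with 18 of 22 bases identical. miR-29c-3p differs from miR-29b-3p by A18G, G21U and U22A, with 19 of 22 identical. In RefSeq, Mir29a lies within 10 kb of Mir29b1 and Mir29c within 10 kb of Mir29b2, on the same strand in each case.

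The miR-221 and miR-222 pair, also within 10 kb on the same strand, shares the seed GCUACAU, while miR-143 and its neighbour miR-145 have different seeds:
rno-miR-221-3p: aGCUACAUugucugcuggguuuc
rno-miR-222-3p: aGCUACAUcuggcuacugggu
rno-miR-143-3p: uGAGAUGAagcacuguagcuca
rno-miR-145-5p: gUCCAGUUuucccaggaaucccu
Further sequences are those of the 2 other loci that differed among tissues, with Mir22 as the neighbour of Mir6326:
rno-miR-365-3p: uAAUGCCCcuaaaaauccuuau
rno-miR-6326: cUGGUCUGuaaagggacacagca
rno-miR-22-3p: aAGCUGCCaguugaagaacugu
The last pair is shown because the 2 microRNAs come from opposite strands of the same place on chromosome 11, and their 22 bases are complementary over the full length:
rno-miR-3588: uCACAAGUuagggucucaggga
rno-miR-125b-5p: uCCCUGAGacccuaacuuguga

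The microRNA-named transcripts were long and weakly expressed. Their median length was 8565 bases (427 to 57899) against 1758 in the whole table, and 13 of the 50 transcripts over 20000 bases were among them. Of the 46, 44 overlapped exons of the microRNA entry in a generic way and 2 (Mir365 and Mir3588) lay on the strand opposite to it. Only 15 (32.6%) reached a mean of 1 FPKM in at least 1 tissue, against 1269 (51.7%) of all transcripts, and 18 (39.1%) reached 0.5 FPKM, against 1812 (73.8%). In 242 of 552 values (43.8%) a microRNA-named transcript was listed at 0, compared with 34.4% over the table. The minimum of 1 FPKM used for testing fell between TCONS_00015817 of rno-mir-6326, at 1.04, and TCONS_00050244 of Mir143, at 0.905 in its highest tissue.

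Detection at a mean of 0.5 FPKM was spread over tissues. It was reached by 10 of the 46 transcripts in liver, in outer medulla and in left ventricle, by 9 in adrenal gland, by 8 in cortex and by 4 in hypothalamus. The share was 8.7% in hypothalamus against 20.1% of all transcripts, 17.4% in cortex against 32.5%, and 19.6% in adrenal gland against 26.6%. It was 21.7% in liver, outer medulla and left ventricle, against 27.9%, 31.1% and 24.9%. The hypothalamus count rose from 4 to 8 when tissues were rescaled to the same median. No microRNA-named transcript was at 0.5 FPKM or more in all 6 tissues.

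Few single transcripts passed the test of a difference among tissues. limma on log2(FPKM + 0.1), adjusted with the Benjamini-Hochberg method over all transcripts tested, called 81.1% of 1269 transcripts different among the 6 tissues, and 4 of the 15 microRNA-named ones. The 4 were TCONS_00050239 and TCONS_00050246 of Mir143, TCONS_00015922 of Mir365 and TCONS_00030100 of Mir29b-2. None of the 15 exceeded all 5 other tissues in its highest one (0 also at an unadjusted p under 0.05), where 45.7% of all transcripts did. None of 5 differed between cortex and outer medulla (0 also unadjusted), where 20.7% of 604 did. The first of these counts rose without either column of liver, adrenal gland or left ventricle. The second rose without liver column 1, liver column 2 or adrenal gland column 1. Such fits leave a lone value in a tissue and were not set against all transcripts. Nothing particular to the microRNA-named transcripts is therefore read from them.

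Because FPKM programs divide fragments among overlapping isoforms, the values were also summed over all transcripts of each locus. Of 10 loci tested, 6 differed among tissues (limma, 85.6% of 1052 loci): Mir143, Mir365, Mir221, rno-mir-6326, Mir29b-1 and Mir29b-2. Without 1 column at a time this count ran from 5 to 8. No locus was above all 5 others in a single tissue, where 51.1% of all loci were, and leaving out either liver column gave 1. Between cortex and outer medulla none of 7 loci differed (2 at an unadjusted p under 0.05), against 24.2% of 534 loci in all. The 3 other loci, Mir3588, Mir421 and rno-mir-6326, were below 1 FPKM in both tissues and not tested in that contrast, and rno-mir-6326 was called there when all pairs of tissues were tested. All pairs of tissues were then compared on these sums, with adjustment over 15780 tests of loci and pairs, of which 42.5% were called. The microRNA loci gave 52 of 150, and 25 of the 52 kept their call under every alternative setting run.

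**Figure D1:**
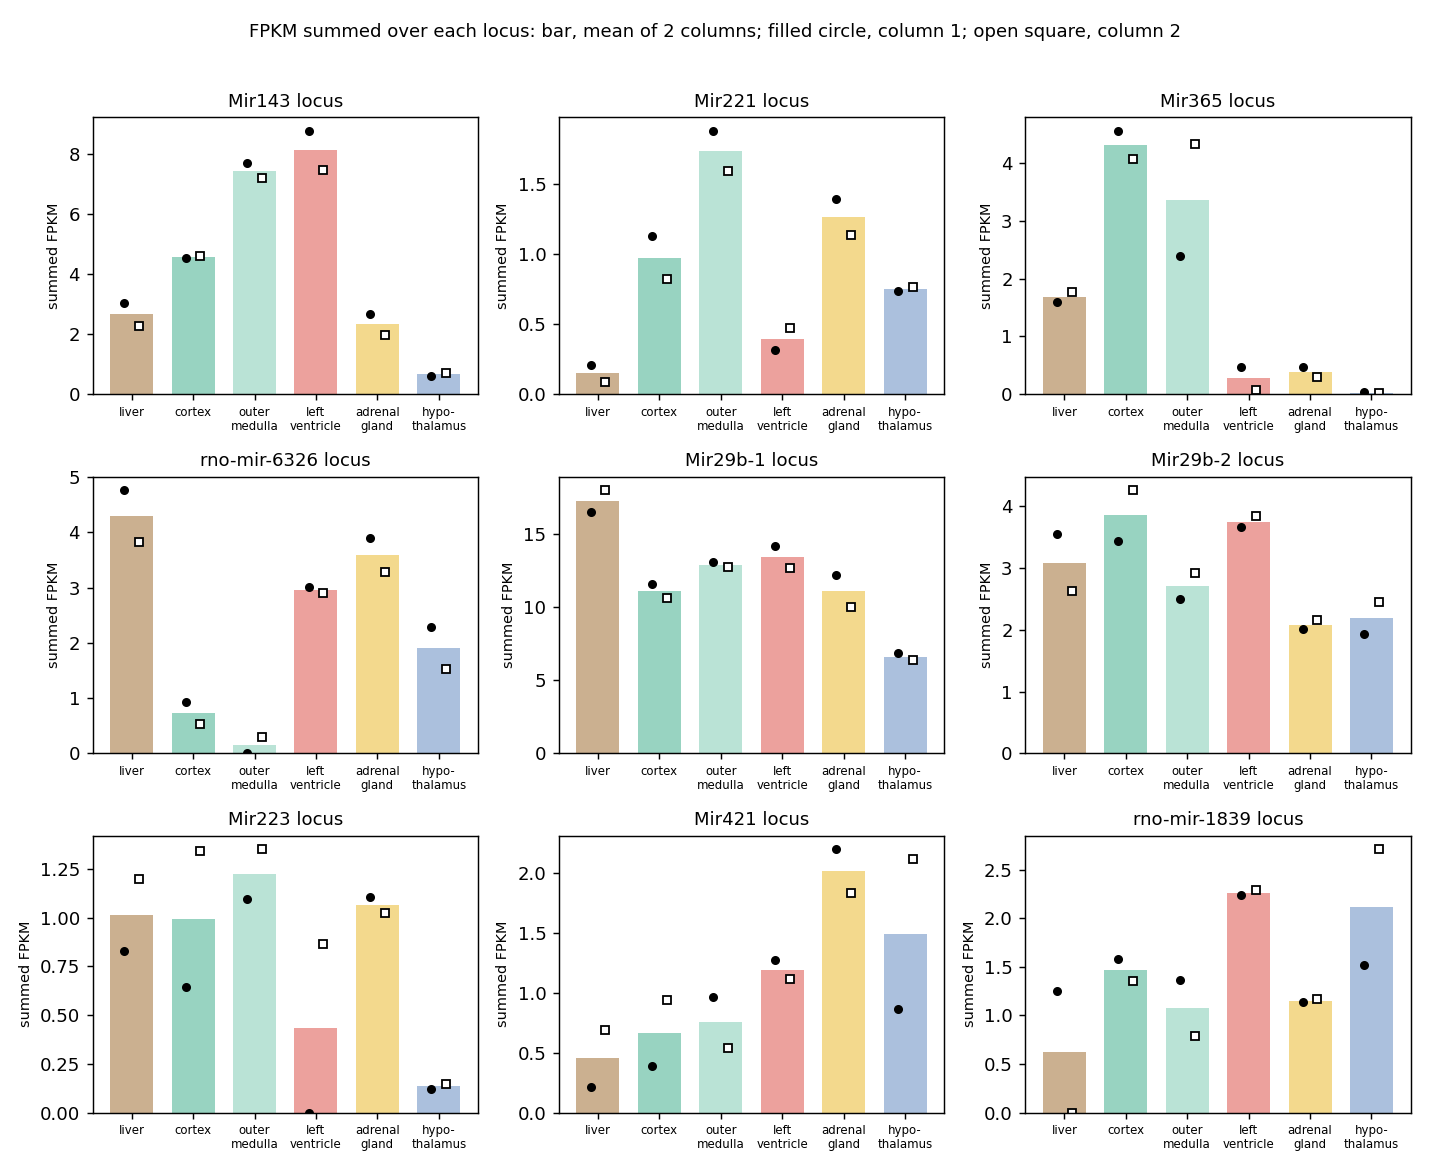
FPKM summed over the transcripts of 9 loci, by tissue (bars are means of 2 columns, filled circles column 1, open squares column 2, with its own axis for each locus). Mir143 ran from 0.612 in hypothalamus to 8.77 in left ventricle, rno-mir-6326 was lowest in outer medulla, and Mir29b-1 was at 6.37 or more in every column.

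Mir143 had the lowest adjusted p over tissues of the 10 loci (2.8e-05, limma). The miR-143 and miR-145 pair is known for its part in the contractile state of vascular smooth muscle, and in RefSeq both hairpins lie on the strand of Mir143, which overlaps the long non-coding RNA gene Carmn. The table lists 11 Mir143 transcripts at chr18:56195504-56217968 (rn5). Their summed FPKM was 8.77 and 7.48 in left ventricle and 7.69 and 7.18 in outer medulla. Cortex followed at 4.55 and 4.62, then liver at 3.05 and 2.26 and adrenal gland at 2.68 and 1.98. Hypothalamus was lowest at 0.612 and 0.699, and the columns of left ventricle and outer medulla overlapped each other while standing above those of all 4 other tissues.

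Left ventricle exceeded hypothalamus by 3.44 on the log2(FPKM + 0.1) scale (SE 0.24, limma adjusted p = 1.9e-05), and outer medulla exceeded it by 3.32 (adjusted p = 2.1e-05). Left ventricle also exceeded adrenal gland by 1.77 (adjusted p = 0.000452), and liver was below left ventricle, with a difference of -1.59 (adjusted p = 0.000826). These 4 differences kept their call under every alternative run. Outer medulla minus left ventricle was -0.12 (SE 0.24, adjusted p = 0.758), and liver minus adrenal gland was 0.18 (adjusted p = 0.623), so these neighbours in the order did not differ beyond their spread. Cortex minus outer medulla was -0.69 (SE 0.24), at an adjusted p of 0.0759 over the loci in that contrast, and it passed when either liver column was left out (adjusted p of 0.0326 without column 1 and 0.0292 without column 2).

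Single Mir143 isoforms differed in how steady they were. TCONS_00050239, of 14045 bases, was at 3.28 and 3.005 FPKM in outer medulla, at 2.75 and 2.54 in left ventricle and at 2.15 and 2.22 in cortex. It was at 0.760 and 0.450 in adrenal gland, 0.536 and 0.423 in liver and 0.139 and 0.118 in hypothalamus, a difference among tissues at an adjusted p of 4.3e-05 (limma). Its 3 high tissues did not overlap the other 3. TCONS_00050246, of 10534 bases, had the same order at its ends, with 2.41 and 1.74 in outer medulla and 0.197 and 0.124 in hypothalamus (adjusted p = 0.00182, limma). Between these, its values were 2.15 and 1.76 in left ventricle, 1.54 and 1.48 in cortex, 0.980 and 0.364 in adrenal gland and 0.426 and 0.790 in liver.

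TCONS_00050247 of Mir143, of 8624 bases, was instead highest in left ventricle, at 1.71 and 1.93 FPKM. Its liver columns were 1.25 and 8.06e-05, and the difference among tissues did not pass (adjusted p = 0.226, limma). Without liver column 1 the adjusted p was 0.00016, and without liver column 2 it was 0.00028. It was at 0.619 and 0.562 in outer medulla, 0.520 and 0.549 in adrenal gland, 0.387 and 0.448 in cortex and 0.186 and 0.206 in hypothalamus. Of the 8 other Mir143 isoforms, TCONS_00050237 was listed at 0 in all 12 columns, and TCONS_00050244 was the highest, at 1.02 and 0.788 in left ventricle.

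Mir221 had a low signal that differed among tissues. miR-221 and miR-222 are best known for lowering the cell cycle inhibitor p27. The locus at chrX:4394741-4476435 holds 7 transcripts, of which 5 bear the microRNA's name, and none of those 5 reached a mean of 0.5 FPKM in a tissue (0.473 for TCONS_00110504 in outer medulla). The sum was 1.88 and 1.59 FPKM in outer medulla, 1.39 and 1.14 in adrenal gland and 1.12 and 0.823 in cortex. It was 0.737 and 0.764 in hypothalamus, 0.317 and 0.472 in left ventricle and 0.211 and 0.0863 in liver. Liver was below every other tissue in both columns, the reverse of its place among the Mir29b-1 and rno-mir-6326 sums.

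The Mir221 sum in liver differed from that in outer medulla by -2.93 (log2(FPKM + 0.1), SE 0.34, limma adjusted p = 0.000178). Against adrenal gland the difference was -2.50 (adjusted p = 0.000426), against cortex -2.14 (adjusted p = 0.00100) and against hypothalamus -1.82 (adjusted p = 0.00249), and all 4 kept their call under every alternative. Liver minus left ventricle was -1.02 (adjusted p = 0.0408), a call lost in 11 alternatives. Outer medulla exceeded left ventricle by 1.91 (adjusted p = 0.00192). The microRNA-named share of the sum ran from 0.231% in liver column 2 to 84.0% in left ventricle column 2. The 5 named transcripts alone had mean sums of 0.900 in outer medulla, 0.578 in adrenal gland, 0.469 in cortex, 0.302 in left ventricle, 0.173 in hypothalamus and 0.0525 in liver. By either sum as deposited, outer medulla was highest and liver lowest, while left ventricle and hypothalamus changed places. For the locus sum, outer medulla minus hypothalamus was 1.105 (limma adjusted p = 0.0293), a call lost in 7 alternatives. It became -0.04 when tissues were rescaled to the same median, so the place of outer medulla above hypothalamus depends on the scale.

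The Mir365 transcript lay on the strand opposite to the microRNA entry and was seen mainly in cortex, outer medulla and liver. miR-365 is known from work on brown fat development. TCONS_00015922, of 427 bases at a locus spanning chr10:64448016-64572533, was the shortest of the 46. It was at 2.84 and 3.24 FPKM in cortex, 1.52 and 3.24 in outer medulla and 0.915 and 1.37 in liver. Left ventricle had 0.339 and 0, and all 4 columns of adrenal gland and hypothalamus were listed at 0. The difference among tissues had an adjusted p of 0.000341 (limma).

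At this length few fragments stand behind the Mir365 values. The cortex columns correspond to about 14.1 and 13.8 fragments at the depth implied by the steps of low values. A listed 0 there allows up to 0.770 and 0.600 FPKM in adrenal gland and up to 0.385 and 0.327 in hypothalamus (3 fragments, counting error only). Liver columns 1 and 2, at 0.915 and 1.37, compare with limits of 0.870 and 2.69, so liver column 2 is below what its depth resolves. The sources used here do not give the strand setting of the authors' counting, so reads of the 2 strands cannot be told apart with certainty.

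Summed over its 3 transcripts, the Mir365 locus had 4.56 and 4.07 FPKM in cortex, 2.39 and 4.33 in outer medulla and 1.59 and 1.76 in liver. Left ventricle had 0.477 and 0.0700, adrenal gland 0.468 and 0.302, and hypothalamus 0.0355 and 0.0173. The 6 columns of the first 3 tissues were all above the 6 of the other 3. Cortex exceeded hypothalamus by 5.13 (log2(FPKM + 0.1), SE 0.55, limma adjusted p = 0.000113), left ventricle by 3.82 (adjusted p = 0.000563) and adrenal gland by 3.21 (adjusted p = 0.00149). Over the alternatives these ran from 2.37 to 6.94, from 2.08 to 4.70 and from 1.94 to 3.48, and the hypothalamus sums lie below the added 0.1. Cortex minus outer medulla was 0.41 (adjusted p = 0.617) and turned to -0.0067 without outer medulla column 1. Liver minus cortex was -1.31 (adjusted p = 0.0902).

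The rno-mir-6326 locus was low in outer medulla and high in liver, and its isoforms were unsteady. The neighbour of Mir6326 on the same strand in RefSeq is Mir22, a microRNA studied in heart muscle growth. The 6 transcripts at chr10:62011585-62016420 summed to 4.77 and 3.82 FPKM in liver, 3.89 and 3.28 in adrenal gland and 3.01 and 2.89 in left ventricle. Hypothalamus had 2.29 and 1.53, cortex 0.923 and 0.539, and outer medulla 5.02e-05 and 0.305.

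All 8 columns of liver, adrenal gland, left ventricle and hypothalamus were above all 4 of cortex and outer medulla. Outer medulla was below liver (liver minus outer medulla 4.44, SE 0.59, limma adjusted p = 0.000351), adrenal gland (-4.19, adjusted p = 0.000487), left ventricle (-3.92, adjusted p = 0.000702) and hypothalamus (-3.29, adjusted p = 0.00187). These 4 kept their call under every alternative, with liver minus outer medulla between 2.21 and 6.25. Cortex minus outer medulla was 2.01 (adjusted p = 0.0231) and lost its call in 5 of 21 alternatives. Liver minus adrenal gland was 0.25 (adjusted p = 0.802). Liver minus hypothalamus was 1.15 (adjusted p = 0.161) as deposited and 0.23 when tissues were rescaled to the same median. Cortex minus hypothalamus was -1.29 (adjusted p = 0.118) as deposited and -2.39 (adjusted p = 0.00645) when rescaled.

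None of the 4 rno-mir-6326 isoforms tested differed among tissues by itself (limma adjusted p of 0.105, 0.545, 0.15 and 0.0788). The isoform that led differed between the 2 columns in cortex, left ventricle and adrenal gland, and was the same in both columns of liver and hypothalamus. In outer medulla column 1 only TCONS_00015822 was above 0, at 5.02e-05 FPKM. That is below the 0.0612 FPKM that 3 fragments give there, so no leading isoform is read in outer medulla. In adrenal gland, TCONS_00015815 had 3.39 and 0 FPKM while TCONS_00015816 had 0 and 2.60. In left ventricle, TCONS_00015817 had 1.82 and 0 while TCONS_00015822 had 0.600 and 2.45. In liver both columns were led by TCONS_00015815, at 4.76 and 3.82. TCONS_00015821, which was too low for testing, reached 0.588 in left ventricle column 1 and 0.570 in hypothalamus column 1, and was at 0 in column 2 of both tissues. The sums of the 2 adrenal gland columns differed far less than their parts. Each of the 4 isoforms changed its call in some fits without 1 column of adrenal gland or left ventricle. Such fits leave a lone value in that tissue, so nothing is read from them.

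**Figure D2:**
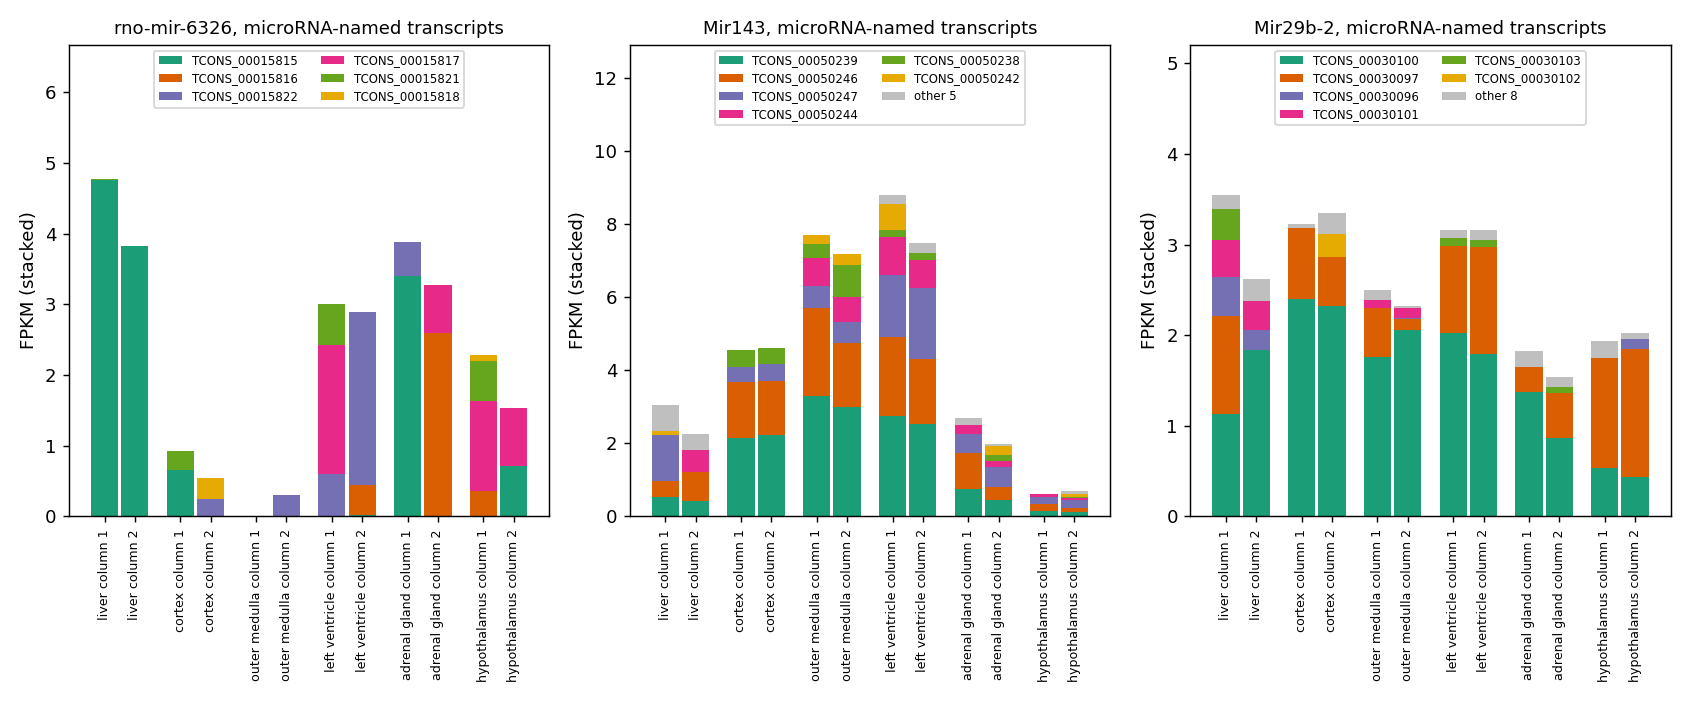
Stacked FPKM of the microRNA-named isoforms of 3 loci in each of the 12 columns (colours are single transcripts, grey the sum of the others). For rno-mir-6326 the colour that fills the adrenal gland columns changes from TCONS_00015815 (3.39) to TCONS_00015816 (2.60), while for Mir143 TCONS_00050239 leads in both columns of cortex, outer medulla and left ventricle.

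The sums of the 2 miR-29 loci were above 0 in all 12 columns. miR-29 is known for targeting messenger RNAs of collagens and other matrix proteins, and for its rise in maturing neurons. Mir29b-1 has 7 transcripts over chr4:58098301-58417174, of which only 2 bear the microRNA's name. Those 2 held 22.5% of the sum in liver column 2 and from 0% to 1.62% in the other 11 columns, so the sums are almost wholly those of the unnamed transcripts. Summed, the liver columns gave 16.5 and 18.0 FPKM, those of left ventricle 14.2 and 12.7, and those of outer medulla 13.03 and 12.7. Cortex gave 11.6 and 10.6, adrenal gland 12.1 and 10.03, and hypothalamus 6.84 and 6.37. Liver was highest and hypothalamus lowest in both columns, and the other 4 tissues overlapped one another in part.

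Liver exceeded hypothalamus in the Mir29b-1 sum by 1.37 (log2(FPKM + 0.1), SE 0.18, limma adjusted p = 0.000366), and the other 4 tissues exceeded it by 0.73 to 1.01. The difference among all tissues (adjusted p = 0.00173) did not pass without hypothalamus (0.0689). Every call against hypothalamus ended when tissues were rescaled so that the loci above 0 in all columns had the same median. The factors for loci were taken from the locus sums and are not given here. For single transcripts (508 above 0 in all columns), such rescaling multiplied hypothalamus by 1.80 and the other tissues by 0.801 to 0.977. On that scale each tissue fell relative to hypothalamus by between 0.88 and 1.16 in log2 units. In the Mir29b-1 sum, liver minus hypothalamus became 0.43 and left ventricle minus hypothalamus 0.03. Outer medulla (-0.28), cortex (-0.42) and adrenal gland (-0.36) turned to the other sign. Liver also exceeded cortex by 0.63 (adjusted p = 0.0214) and adrenal gland by 0.64 (adjusted p = 0.0210), and after rescaling these were 0.85 and 0.79. The first was lost without cortex column 2 and the second without adrenal gland column 2.

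Mir29b-2 has 15 transcripts over chr13:118271149-118366003, of which 14 bear the microRNA's name. The cortex columns summed to 3.44 and 4.26 FPKM, those of left ventricle to 3.66 and 3.84, and those of liver to 3.54 and 2.62. Outer medulla gave 2.50 and 2.93, adrenal gland 2.01 and 2.15, and hypothalamus 1.93 and 2.44. The difference among tissues was close to the threshold (limma adjusted p = 0.0366) and ended in 11 alternatives, 9 of which left out a single column of cortex, outer medulla, left ventricle, adrenal gland or hypothalamus (up to 0.0872, without cortex column 2). Cortex minus adrenal gland was 0.85 (SE 0.25, limma adjusted p = 0.0224), a call lost without cortex column 2 or adrenal gland column 1 (adjusted p up to 0.121). Cortex minus hypothalamus was 0.79 (adjusted p = 0.0310) as deposited and -0.35 when rescaled.

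Within Mir29b-2, the 2 leading isoforms ran in opposite directions in hypothalamus. TCONS_00030100, of 57899 bases the longest transcript of the table, had 2.40 and 2.32 FPKM in cortex, 2.03 and 1.80 in left ventricle and 1.75 and 2.06 in outer medulla. Liver had 1.13 and 1.84, adrenal gland 1.37 and 0.869, and hypothalamus 0.539 and 0.434, where both columns were below the other 10. TCONS_00030097, of 51862 bases, had 1.21 and 1.41 in hypothalamus, above its other 10 columns. Left ventricle had 0.956 and 1.17, liver 1.08 and 0.00331, and cortex 0.789 and 0.546. Outer medulla had 0.550 and 0.118, and adrenal gland 0.276 and 0.488.

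TCONS_00030100 passed the test over tissues (limma adjusted p = 0.00377), but not after rescaling (0.0663) or without hypothalamus (0.138). TCONS_00030097 did not pass (adjusted p = 0.340), and reached 0.01001 without liver column 1. In hypothalamus TCONS_00030097 held 62.4% and 57.9% of the locus sum, and TCONS_00030100 led in each of the other 10 columns with 32.0% to 70.4%. The difference between the 2 isoforms' patterns was not tested.

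**Figure D3:**
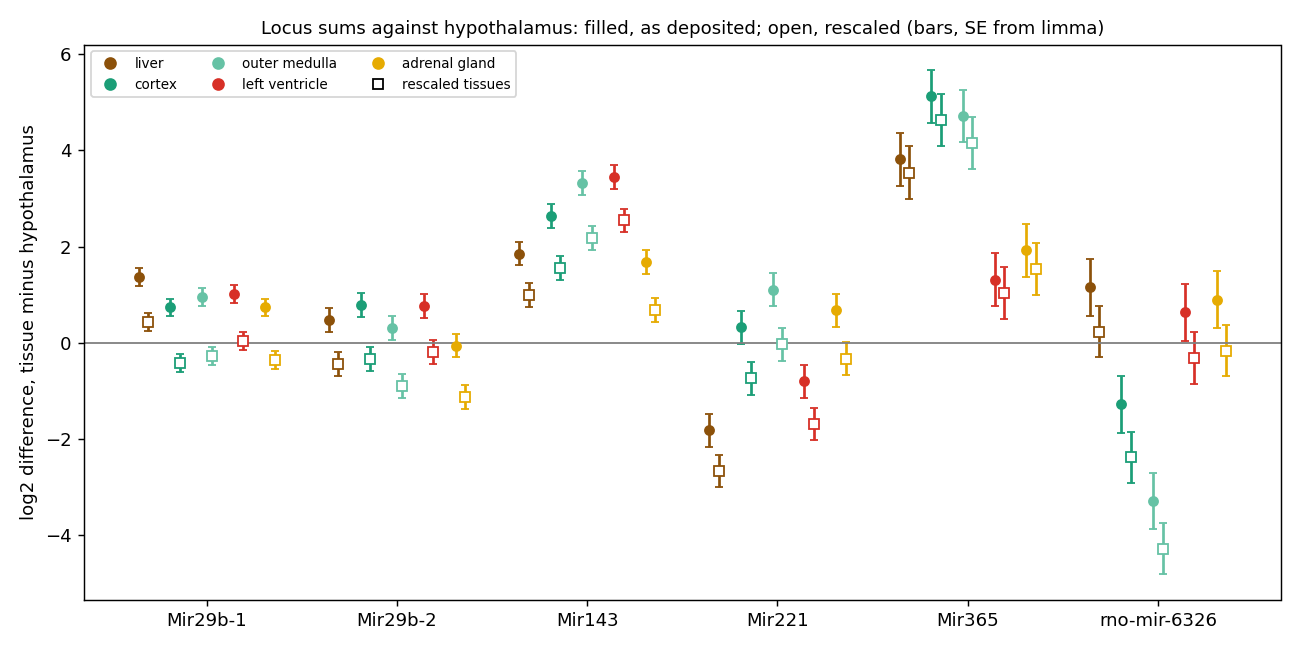
Difference of each tissue from hypothalamus in locus sums on the log2(FPKM + 0.1) scale, for 6 loci (filled circles as deposited, open squares after rescaling of tissues, bars are limma SEs). The Mir29b-1 and Mir29b-2 points fall to near or below 0 after rescaling, while left ventricle minus hypothalamus for Mir143 goes from 3.44 to 2.55.

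Mir223, Mir421 and rno-mir-1839 did not pass the test over tissues. miR-223 is a microRNA of granulocytes and other myeloid cells. In bulk tissue, fewer cells of a type and less RNA per cell cannot be told apart. The single Mir223 transcript (chrX:66202569-66206734) had 0.829 and 1.20 FPKM in liver, 1.11 and 1.02 in adrenal gland, 1.10 and 1.35 in outer medulla, and 0.643 and 1.34 in cortex. It had 0.000697 and 0.863 in left ventricle and 0.122 and 0.147 in hypothalamus (adjusted p = 0.0968, limma). The low left ventricle column is below the 0.103 FPKM that 3 fragments give there, and without that column the adjusted p was 0.00505, while without the other it was 0.000987. Outer medulla minus hypothalamus was 2.49 (SE 0.88, adjusted p = 0.0497), a call lost in 15 alternatives.

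The Mir421 locus (chrX:75166723-75291510) overlaps in RefSeq Jpx and Ftx, long non-coding RNA genes of the X-inactivation centre, with Mir374b beside it. Its 3 transcripts summed to 2.20 and 1.83 FPKM in adrenal gland, 0.860 and 2.11 in hypothalamus, 1.27 and 1.11 in left ventricle, 0.967 and 0.542 in outer medulla, 0.393 and 0.936 in cortex and 0.214 and 0.693 in liver. The adjusted p over tissues was 0.0723 (limma), at 0.0390 without liver column 2 and 0.0205 after rescaling. Liver minus adrenal gland was -2.08 (SE 0.59, adjusted p = 0.0208) and lost its call in 4 alternatives. The 2 microRNA-named transcripts together summed to 0.682 and 0.539 FPKM in adrenal gland, their highest tissue, and an unnamed transcript led in 10 of the 12.

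The 2 rno-mir-1839 transcripts (chr1:144290053-144305885, both of 767 bases) had identical values in all 12 columns, so they give 1 measurement. In RefSeq the microRNA sits within Scarna15, a small Cajal body RNA. The locus sum was 2.23 and 2.29 FPKM in left ventricle, 1.52 and 2.71 in hypothalamus, 1.14 and 1.17 in adrenal gland and 1.25 and 0 in liver. Cortex gave 1.58 and 1.35, and outer medulla 1.37 and 0.785. The adjusted p over tissues was 0.208 (limma), and 0.000440 without liver column 1, which leaves liver with a single value of 0. A 0 in liver column 2 allows up to 1.23 FPKM for each transcript at this length.

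The 2 liver columns differed widely for several microRNA-named transcripts. Of 10 transcripts at a mean of 0.5 FPKM or more in liver, 5 differed at least 4-fold between the columns, against 23.6% of 685 transcripts in all. Over all tissues the shares were 15.7% of 51 values against 10.6%, and 5 of the 8 microRNA-named values behind this share were those of liver. On locus sums the shares in liver were 33.3% of 9 loci against 16.5% of 556. Over all tissues they were 6.38% of 47 against 6.86%, and the 3 microRNA values behind this share were all those of liver. Liver column 2 was also the shallowest column, with an implied 3870000 fragments against 11980000 in column 1 and 10110000 to 31860000 in the other tissues. The part of depth in these differences was not tested.

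**Figure D4:**
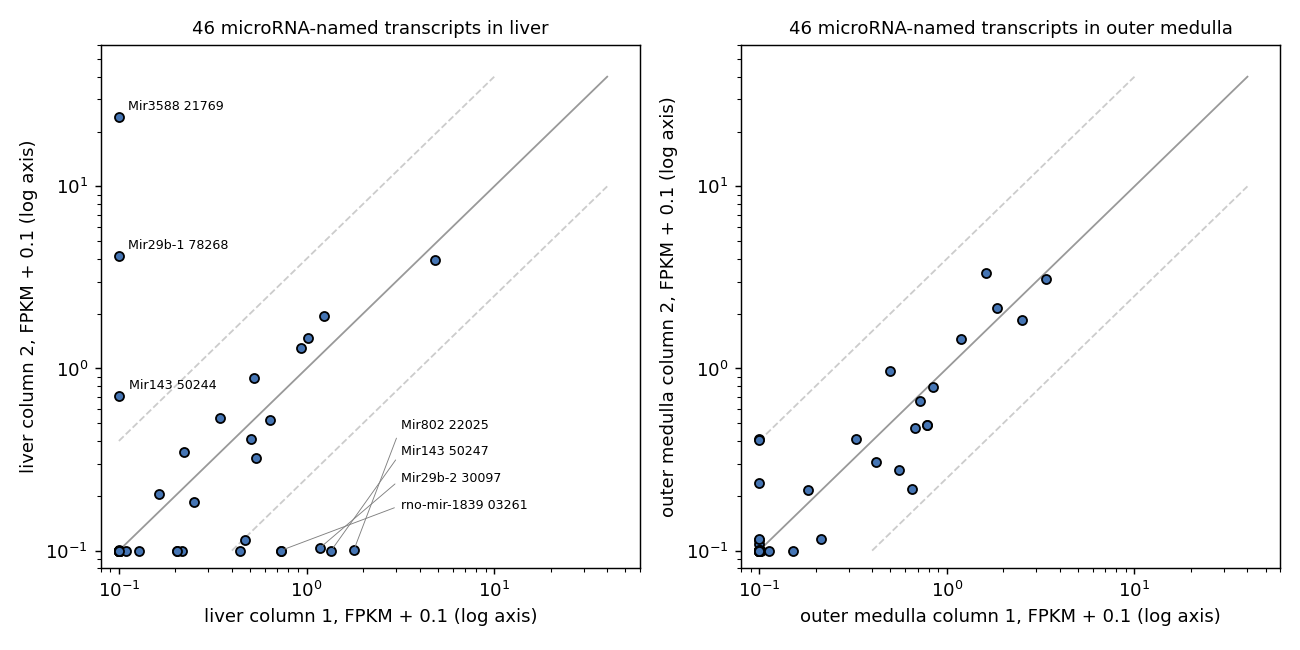
FPKM + 0.1 of the 46 microRNA-named transcripts in column 1 (x axis) against column 2 (y axis), both log axes, for liver (left) and outer medulla (right), with lines of equality and of 4-fold difference. In liver Mir3588 (0 and 24.0) and TCONS_00078268 of Mir29b-1 (0 and 4.06) lie on the left edge and Mir802 (1.69 and 0.000632) at the bottom.

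Mir3588 had the highest value of all 46 transcripts, in a single column. The transcript, of 6106 bases at chr11:19751199-19758070, lies on the strand opposite to the Mir3588 entry, which is the strand that carries Mir125b2 in RefSeq. It was at 0 and 24.0 FPKM in liver, and at 0.208 or less in the 10 other columns. The value of 24.0 corresponds to about 554 fragments, and the 0 in the deeper column allows up to 0.0420 FPKM, so the 2 liver columns differ by far more than counting error. limma called no difference among tissues (adjusted p = 0.426), and gave 0.000129 without liver column 1.

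TCONS_00078268 of Mir29b-1, of 36162 bases, was likewise at 0 and 4.06 FPKM in liver, or 0 and about 565 fragments, and at 0.135 or less elsewhere (adjusted p over tissues 0.550, limma, and 0.00188 without liver column 1). In liver column 2 it held 22.5% of the locus sum and in column 1 it held 0%, although the 2 locus sums, 16.5 and 18.0, were close. Mir802, which is known as a microRNA of liver and islets that rises in obesity, went the other way. It is 1 transcript of 4480 bases at chr11:37161555-37167471, with 1.69 and 0.000632 FPKM in liver and 0.159 or less elsewhere. Column 1 holds about 87.7 fragments of it, and the value in column 2 is below the 0.179 FPKM that 3 fragments give there.

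At a mean of 0.843 FPKM, Mir802 missed the minimum for testing. It entered the test without liver column 2, through the single liver value that remained, and was then called highest in liver. The Mir3588 locus was called highest in liver without the 0 of liver column 1. In both cases the value that remains sets the outcome, so nothing is read from these calls.

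The remaining transcripts were low. In 25 of the 46 no column reached 0.5 FPKM, among them 12 of the 14 named Mir29b-2 isoforms and 4 of the 5 Mir221 ones. Of the 6 between this level and the minimum for testing, TCONS_00050244, Mir802, TCONS_00110504 and TCONS_00015821 are described above. The others were TCONS_00050238 of Mir143, at 0.863 in outer medulla column 2, and TCONS_00050242 of Mir143, at 0.710 in left ventricle column 1 and 0 in column 2.

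The 11 names were compared with lists of microRNAs known for a tissue. Several neuronal names (Mir124-2, Mir137, Mir129-2 and Mir7a-2 among them) were not included at the outset. Among these, Mir124-2 matches the neural list and Mir7a-2 the endocrine list, so the counts for both lists follow in part from that choice. Of the listed neural microRNAs, miR-29 alone was represented (2 names), and 0 of the liver, heart, kidney, endocrine and endothelial lists were. Smooth muscle was represented by Mir143 and blood cells by Mir223. Of the genes listed for each tissue, the table named 1 to 4. The values are those of long non-coding transcripts that bear the gene's name, not of its messenger RNA. Of 4 liver genes, MBL2 was at 13.1 and 11.7 FPKM in liver and at most 0.512 elsewhere. Slc27a5 was at 8.41 and 4.97 in liver (at most 0.238 elsewhere) and Afp at 1.41 and 0.679 (at most 0.0713 elsewhere). The Fga transcript was at 0 in both liver columns and at 1.42 and 1.16 in adrenal gland. Slc12a1, listed for kidney, was at 36.5 and 36.6 in outer medulla, 12.2 and 14.7 in cortex and 0 in both hypothalamus columns. Sox2 was at 4.04 and 4.41 in hypothalamus and at 0.0563 and 0.0414 in cortex. The cortex columns thus carried the kidney gene's transcript and little of the Sox2 one. The transcript named Myl1 was at 4.43 and 34.9 in left ventricle and at 32.1 and 36.5 in cortex, so nothing on left ventricle is read from it. Cyp11b3 was at 60.5 and 44.4 in adrenal gland but also at 5.89 in hypothalamus column 1, and Sox2 was at 0.891 in adrenal gland column 2. In liver column 2, Cyp11b3 was at 2.10, Slc12a1 at 1.32 and Myl1 at 1.05, and each was at 0 in liver column 1. Cyp11b3 was also at 0.801 and 2.18 in left ventricle. The part of these signals in the liver, left ventricle, adrenal gland and hypothalamus values above was not tested.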

How the data were processed

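TRIzol extraction and a TruSeq Stranded RNA LT library kit are named per the labels' protocols, and rn5 with bcl2fastq 2.15.0 per the submitters' processing notes. Not given in the sources used here are the aligner, the FPKM program and its strand setting. The authors deposited FPKM and, as another value, the length of each of 2458 transcripts, of which 3 without values were left out. Coordinates are copied from the table, which does not say if starts are counted from 0 or from 1. FPKM are not counts, so limma 3.58.1 (R 4.3.3) was run on log2(FPKM + 0.1) over 12 columns with a mean-variance trend and tissue as factor, for transcripts at a mean of 1 FPKM or more in at least 1 tissue, with Benjamini-Hochberg adjustment over all of them at 0.05. The added 0.1 shrinks the changes of low transcripts. The tests were checked on simulated data.

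Sums were taken over the transcripts that share a locus identifier. Their use beside single transcripts, with the tests of all 15 pairs of tissues, was chosen after seeing the data. Implied depths came from the steps of low values, with an assumed mean fragment of 140 bases, and 80.4% to 88.9% of values came within 0.15 of whole fragments. The limit for a 0 is 3 fragments. Limits cover counting error only. Every transcript at a mean of 1 FPKM or more in a tissue was named, and others by name where a column reached 0.5. The transcripts and lists were chosen with earlier results of these data known. Python 3.11.15, pandas 2.3.3 and NumPy 2.4.6 were used. Alternatives were pseudocounts of 0.01 and 1, a minimum of 0.5 FPKM or none, rescaling of tissues, a column-number block, a 5-fold rule of size and columns left out.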

Additional observations from a re-analysis of the deposited data

How the results depend on the processing

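The count of microRNA-named transcripts that differed among tissues was 4 of 15 tested. It was 10 with no FPKM minimum, where all 46 entered the fit, so the 2 counts have unlike denominators. Without 1 column at a time it was the same or higher. The count higher in 1 tissue than in each other, 0, became 2 with a pseudocount of 1, with no minimum, and by a 5-fold rule of size (TCONS_00078268 of Mir29b-1 and Mir3588), 1 without both liver columns (chosen after seeing the data), and 0 to 3 without 1 column. The count between cortex and outer medulla, 0, became 1 at a minimum of 0.5 and 2 with none, and stayed at 0 to 0 without 1 column. For locus sums, the count above all other tissues, 0, ran from 0 to 1 without 1 column. The cortex and outer medulla count of loci, 0, became 2 with a pseudocount of 1 (Mir143 and Mir221), 1 at a minimum of 0.5 (rno-mir-6326), 1 without both liver columns (Mir143) and 0 to 1 without 1 column. The 6 loci that differed among tissues ranged from 5 to 8 without 1 column.

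Transcripts detected at 1 FPKM instead of 0.5 were 6 in liver, 4 in cortex, 5 in outer medulla and 4 in adrenal gland. At any value above 0 they were 30 in liver, 27 in cortex, 29 in outer medulla, 35 in left ventricle, 34 in adrenal gland and 36 in hypothalamus, and rescaling gave 8 in hypothalamus. Cortex minus outer medulla changed sign in 2 loci: Mir365 ran from -0.0067 to 0.83 and Mir223 from -0.83 to 0.13 without 1 column. The cause was not tested for any of these. The labels give no replicate numbers. With the column number as a replicate block the counts were 4, 0 and 0 for transcripts and 6, 0 and 0 for loci, and the block changed none of these counts. Of 52 pairs of tissues called, 51 could be fitted when tissues were rescaled, of which 12 lost their call, 6 of them with the other sign. Rescaling added 9 calls, 8 of them with hypothalamus higher, among them Mir29b-2 adrenal gland minus hypothalamus at -1.12 (adjusted p = 0.0061), Mir221 left ventricle minus hypothalamus at -1.69 (0.0035) and Mir421 liver minus hypothalamus at -2.44 (0.0096).

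Depth limits the low values, most in liver column 2. With 2 columns per tissue, leaving out 1 column leaves a lone value that is assumed to vary like the others. The counts under alternative settings cover the microRNA-named transcripts and loci alone, without the share over all transcripts or loci beside them.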

Other observations

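The liver difference at Mir3588 did not stand alone on chromosome 11. The nearest other transcript in the table, an unnamed one at chr11:19762010-19784345 (rn5), had 0.00215 and 7.53 FPKM in the 2 liver columns and 0.269 or less in the 10 other columns. The Mirlet7c-1 locus on the other side (chr11:19313226-19708967, 5 transcripts) had 2.16 and 1.05 in liver and 0.961 to 2.42 elsewhere. The let-7c and miR-125b genes are known neighbours. These transcripts were chosen after their values were seen, and no test was run on them.

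Over the whole table, 17 transcripts shared their length and all 12 values with another transcript, and the 2 of rno-mir-1839 were among them.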
